A study of Mus musculus with 6 samples.

Results

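Ion channel subunit genes of the mouse heart were followed through 3 diet groups. A gene was taken as a member when its symbol began with Kcn, Scn, Cacn, Hcn or Clcn followed by a letter or a digit. Scnm1, a splicing gene, was left out. A member also needed an average FPKM of at least 0.5 over the 6 libraries. FPKM is a level per transcript length and per depth, counted in fragments. Of 154 genes with such a symbol, 65 were members and 89 lay under the level, 17 of them at 0 in all libraries. Members just inside the limit included Kcnj14 and Scn3b, with mean levels of 0.511 and 0.551 FPKM, and the genes just outside were Kcnd3os, Cacna1a and Scn3a, with 0.465, 0.440 and 0.407 FPKM. Where values are given in pairs, replicate 1 comes first. The levels over all libraries together chose the members. Cacna1d, Cacna2d3, Clcn5, Kcnj15 and Scn3b had a C mean under the limit and reached it through the N and NP groups, so a level above that of the C group was part of their choice. Kcna2 in turn had an N mean under the limit. Kcnj14 had N and NP means of 0.375 and 0.437 FPKM and reached the limit through the C group. A higher level under C was thus part of its choice.

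The samples were hearts of C57BL/6J male mice, with 2 libraries in each group and 6 in all. Normal chow was given to the C group, a diet rich in fat, cholesterol and sucrose with added bile acid to the N group, and that same diet plus pemafibrate at 0.1 mg/kg to the NP group. The N diet is a model of nonalcoholic steatohepatitis (NASH), and pemafibrate is a selective modulator of the nuclear receptor PPARα. The labels give 3 weeks and the study's methods 8 weeks of feeding. No source used here says whether a library is 1 animal or a pool, so that *P* values measure the spread between these libraries.

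The heartbeat is carried by currents through these channels. Sodium channels start the ventricular and atrial action potential, L-type calcium channels sustain it and trigger contraction, and several potassium channels end it and hold the resting potential. Pacemaker (HCN) and T-type calcium channels serve the sinoatrial node. A channel is built from a pore-forming subunit and accessory subunits that set its amount at the membrane and its gating. In the mouse the fast transient outward potassium current is prominent in ventricular muscle, whereas the acetylcholine-gated potassium channel belongs mainly to atrium and node.

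The libraries were not alike in depth or in chamber content. From the steps between low FPKM values, the depth in units of 1e+06 reads was estimated at 26.1 and 21.4 in the C libraries. It was 8.14 to 8.66 in the N and NP libraries, so that depth and the C group cannot be told apart. Cardiomyocyte markers (Myh6, Tnnt2, Tnni3, Actc1, Ttn, Ryr2 and Pln) summed to 34920 and 36880 FPKM under C, 32460 and 31040 under N, and 34470 and 36670 under NP. They show heart muscle in each library, although the extraction text in the labels speaks of liver. The summed level of 7 markers of atrial muscle was 311 and 179 FPKM under C, 3710 and 5229 under N, and 3795 and 6248 under NP. Of these 7, Sln, the atrial regulator of the calcium pump, stood at 0 and 0.450 FPKM under C, 250.3 and 462 under N, and 287 and 518 under NP. Myl7, the atrial light chain, stood at 1.51 and 6.71 FPKM under C, 857 and 1193 under N, and 781 and 1319 under NP. Bmp10, an atrial growth factor, was at 0 and 0.0830 FPKM in the C libraries. All 7 atrial markers were higher in the N than in the C group at an adjusted *P* value under 0.05 (limma), against 1.55% of all genes called in either direction. Sln and Bmp10 had C means of 0.225 and 0.0415 FPKM and reached the limit for testing only through the N and NP groups. A higher level there was thus part of what brought these genes into the test. None of the 7 differed between NP and N at that threshold, with differences from -0.04 to 0.68 in log2(FPKM + 1). The 5 adipocyte markers (Adipoq, Plin1, Lep, Cfd and Ucp1) summed to 1.76 and 7.09 FPKM under C, 169 and 88.03 under N, and 13.6 and 74.2 under NP. The summed level of the ventricular markers Myl2, Myl3, Irx4 and Hey2 was 32840 and 35360 FPKM under C, 17460 and 22800 under N, and 18290 and 25440 under NP. The atrial markers were thus at or near 0 or at their lowest in the C libraries, and diet and chamber content cannot be told apart in any comparison with the C group. In tissue RNA, fewer cells of a type and less RNA per cell cannot be told apart either.

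Channel levels spanned more than 2 orders of magnitude. On average 22 members had over 10 FPKM, 21 had 2 to 10 FPKM and 22 had under 2 FPKM. The 10 highest made up 63.1% to 66.1% of the summed level of the members, which was 763.3 to 924.4 FPKM per library. No member was at 0 in any library. The highest was Kcnk3, which encodes the background channel TASK-1, with a level of 107 and 99.2 FPKM under C, 132 and 86.8 under N, and 127 and 106 under NP. Next came Kcnip2, the accessory KChIP2 of the transient outward channel, and its range of 83.4 to 113.9 FPKM overlapped that of Kcnk3. Kcnj11, the Kir6.2 pore of the ATP-sensitive channel, had a mean level of 72.8 FPKM. Kcng2, a silent modifier of Kv channels, Cacna2d1, the main calcium channel α2δ subunit, and Cacna1c, the L-type pore, had means of 41.0, 38.1 and 33.9 FPKM. Kcnj3, Clcn4-2 and Kcnj5 lay close together with means of 30.3, 29.4 and 28.4 FPKM, and the range of Kcnj3 enclosed those of the other two.

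**Figure D1:**
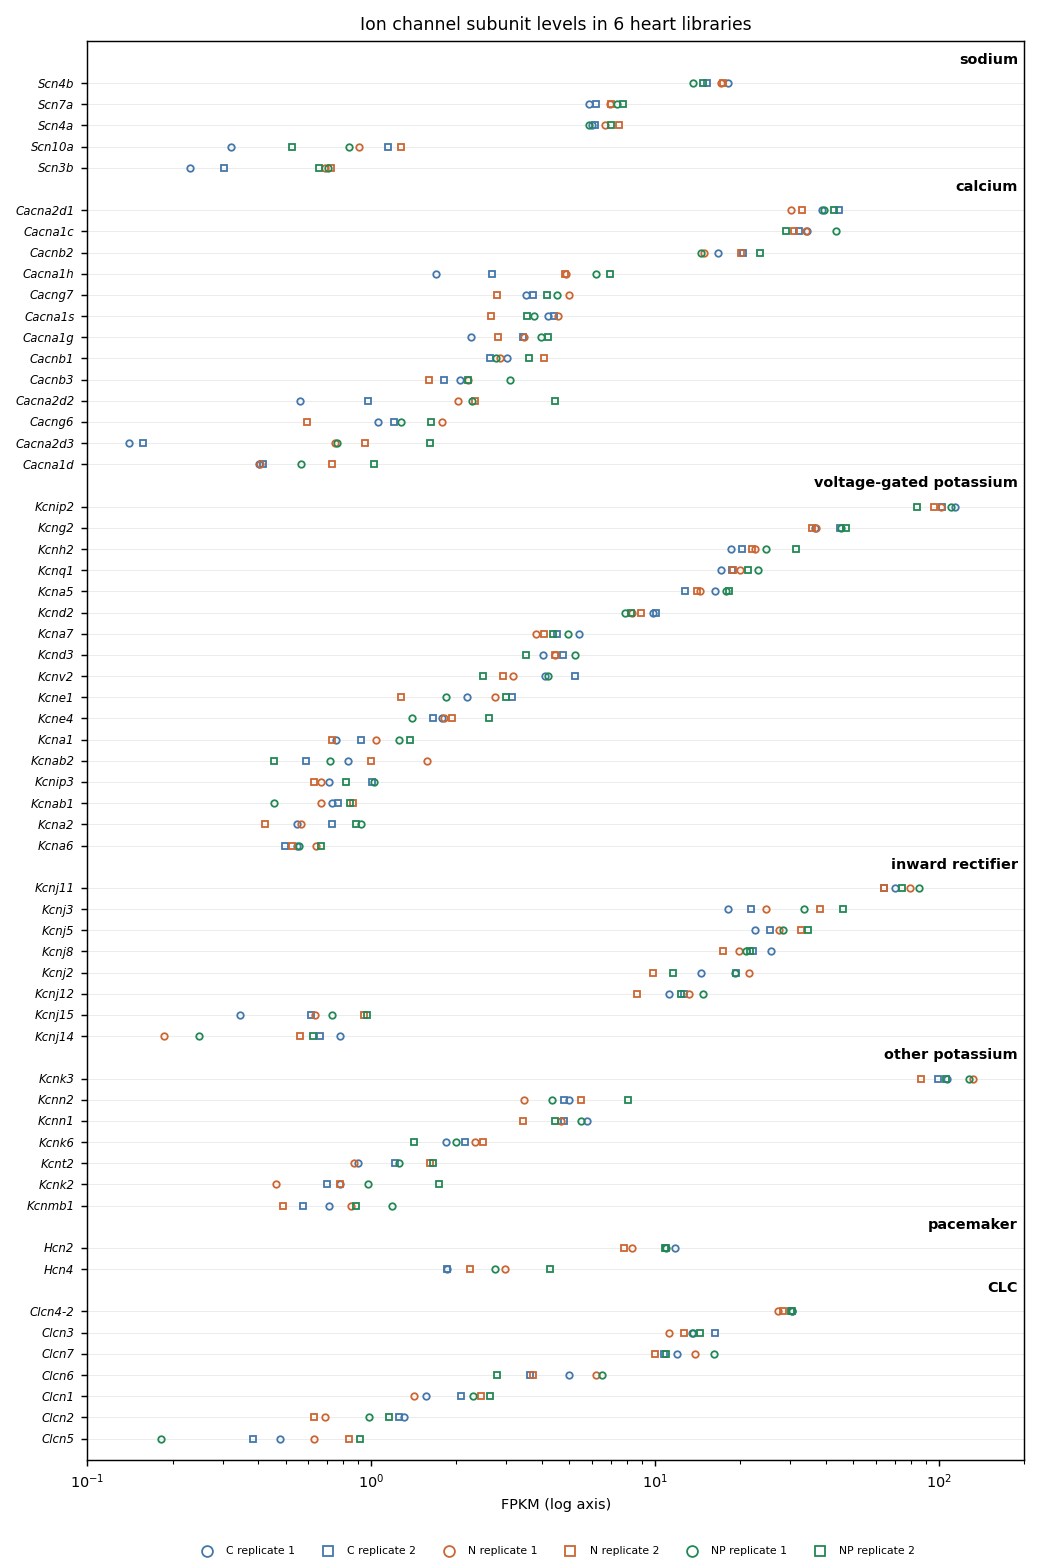
Level of 59 of the 65 members in each of the 6 libraries, in FPKM on a log axis, grouped by channel class and ordered by mean level within a class; circles are replicate 1 and squares replicate 2, with a colour for each group. Most members show 6 points close together, while Cacna1h, Cacna2d2, Cacna2d3 and Scn3b show both C points to the left of the other 4.

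By class, the shares of the summed level had narrow ranges. The 20 voltage-gated potassium channel genes held 27.5% to 30.1% of it in the 6 libraries, and the 8 inward rectifiers 19.6% to 23.0%. The 13 calcium channel genes held 12.6% to 14.6%, the 7 sodium channel genes 11.5% to 13.8%, the 7 other potassium channel genes 13.2% to 17.0%, the 8 CLC genes 7.23% to 7.97%, and the 2 pacemaker genes 1.32% to 1.72%.

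Differences were taken on the means of log2(FPKM + 1), with N minus C standing for the N mean less the C mean. They were tested with limma, with *P* values adjusted over all 12923 genes whose mean level reached the same limit. The added 1 understates the difference of genes with a low level. No member passed an adjusted *P* value of 0.05 in any of the 3 comparisons. The N and C groups differed in 0 of 65 members, while 1.55% of all genes tested passed. At an unadjusted *P* value under 0.05, Cacna1h, Cacna2d2, Cacna2d3 and Scn3b were higher (4 of 65, against 8.24% of all genes) and 5 of 65, among them Cacna2d1, Clcn2, Hcn2 and Kcnj8, were lower (against 6.76%). The NP and N groups also differed in 0 of 65 members, against 1.39% of all genes. There, unadjusted *P* values under 0.05 were found for Cacna2d1, Hcn2, Kcng2 and Kcnk2 on the higher side (4 of 65, against 2.21%) and for Kcnab2 on the lower side (1 of 65, against 5.83%). Between NP and C the count was 0 of 65, against 0.0387% of all genes. Unadjusted *P* values under 0.05 then marked 9 members as higher, namely Cacna1h, Cacna2d2, Cacna2d3, Hcn4, Kcnh2, Kcnj3, Kcnq1, Scn3b and Scn7a, against 3.87% of all genes, and 1 member, Kcnd2, as lower, against 4.18%. The precision was limited: the median 95% interval of a member's difference extended 0.435 to either side, so that for a typical member a smaller difference has an interval that includes 0.

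A second count asked which members had both libraries of one group above both of the other and were 1.5-fold or more apart in log2(FPKM + 1). Cacna1h, Cacna2d2, Cacna2d3 and Kcnj3 were higher by this count in the N than in the C group, 4 of 65 against 5.08% of all genes, and 0 of 65 were lower, against 2.36%. Of these, Cacna2d3 reached the limit only through the N and NP groups. With a limit at a mean of 1 FPKM, which takes out Cacna2d3, the count was 3. Hcn4 joined these genes between NP and C, where 5 of 65 were higher, against 1.66%, and 0 of 65 lower, against 1.90%. With the limit of 1 FPKM this count was 4. Between NP and N, 0 of 65 were higher, against 0.480% of all genes, and 0 of 65 lower, against 3.72%. For N minus C, the members had a median difference of 0.02 and all genes tested one of -0.03. For NP minus N these medians were 0.18 and 0.03, and for NP minus C 0.10 and -0.01. These comparisons share libraries in pairs, so that a value high in N alone or low in N alone enters 2 of them with opposite signs.

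Of the 5 members with the largest NP minus C difference, Cacna1h, Cacna2d2, Kcnj3 and Hcn4 belong to a list of genes known from atrium or node, and Cacna2d3 does not. Kcnj3, Cacna2d2, Cacna2d3 and Hcn4 had higher levels in all N and NP libraries than in both C libraries. In the RefSeq annotation of GRCm38.p6 (mm10) these genes span chr2:55411798-55598145, chr9:107399733-107529346, chr14:28904943-29722775 and chr9:58822949-58863175. The 250 bases before a start site of each are shown, read 5′ to 3′ on the strand of the gene. These 4 genes were taken from the 5 with the largest NP minus C difference. The order of levels itself was found in 11 of 65 members, against 10.3% of all genes tested. Capitals mark matches to AGGTGT or its reverse complement ACACCT, the core of T-box sites, a motif picked after the values were seen. The T-box gene Tbx5, a regulator of atrial and conduction genes, had levels of 7.43 and 9.72 FPKM under C, 14.9 and 12.4 under N, and 17.4 and 15.5 under NP. The windows lie at chr2:55435720-55435969 on the plus strand for Kcnj3, inside the annotated span of the gene, and at chr9:58822699-58822948 on the plus strand for Hcn4. The others lie at chr9:107399630-107399879 on the plus strand for Cacna2d2 and at chr14:29721865-29722114 on the minus strand for Cacna2d3. The Cacna2d2 window runs into the annotated span of its gene, and the Cacna2d3 window lies inside that of its gene.
Kcnj3: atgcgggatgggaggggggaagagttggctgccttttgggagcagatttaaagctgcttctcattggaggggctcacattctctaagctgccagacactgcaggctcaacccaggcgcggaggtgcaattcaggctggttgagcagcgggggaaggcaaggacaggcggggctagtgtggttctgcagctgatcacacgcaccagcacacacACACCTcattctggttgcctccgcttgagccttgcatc
Hcn4: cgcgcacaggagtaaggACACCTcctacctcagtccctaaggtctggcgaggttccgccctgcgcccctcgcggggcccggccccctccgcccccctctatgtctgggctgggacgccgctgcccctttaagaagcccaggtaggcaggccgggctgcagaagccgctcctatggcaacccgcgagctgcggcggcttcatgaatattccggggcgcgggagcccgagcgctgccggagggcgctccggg
Cacna2d2: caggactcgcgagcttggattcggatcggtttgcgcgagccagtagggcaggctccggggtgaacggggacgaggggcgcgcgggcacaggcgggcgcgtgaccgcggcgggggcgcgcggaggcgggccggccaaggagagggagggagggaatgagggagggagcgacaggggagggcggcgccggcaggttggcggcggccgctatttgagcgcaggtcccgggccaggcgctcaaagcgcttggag
Cacna2d3: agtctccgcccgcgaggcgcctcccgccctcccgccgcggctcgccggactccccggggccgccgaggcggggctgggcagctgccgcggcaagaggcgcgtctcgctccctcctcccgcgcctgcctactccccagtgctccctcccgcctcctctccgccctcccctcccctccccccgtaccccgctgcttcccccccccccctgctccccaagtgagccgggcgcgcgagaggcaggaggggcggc
Kcnj3 and Hcn4 each held 1 match and Cacna2d2 and Cacna2d3 held 0. The motif occurred in 11.8% of all 32851 windows and in 7 of 64 windows of members, or 10.9%. A second motif, AGATAA or its reverse complement TTATCT, the core of GATA sites, was found in 9.99% of all windows, in 2 of 64 windows of members and in none of these 4. A match is a run of letters and not a bound site.

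Kcnj3 and Kcnj5 encode GIRK1 and GIRK4, which together form the acetylcholine-gated potassium channel. The level of Kcnj3 was 18.1 and 21.8 FPKM under C, 24.6 and 37.97 under N, and 33.4 and 45.9 under NP. Both N and both NP libraries lay above the C libraries, and replicate 2 was the higher library in every group. The N minus C difference was 0.60 (SE 0.25, 95% interval -0.02 to 1.22) in log2(FPKM + 1), with an adjusted *P* value of 0.343 (limma). For NP minus C it was 0.95 (SE 0.25, 95% interval 0.33 to 1.56), with an adjusted *P* value of 0.507 (limma). Between NP and N, which overlapped, it was 0.35 (SE 0.25, 95% interval -0.27 to 0.96). Its partner Kcnj5 had a level of 22.5 and 25.4 FPKM under C, 27.4 and 32.7 under N, and 28.2 and 34.5 under NP. The order of groups was the same with a smaller step, and the difference was 0.31 (SE 0.15, 95% interval -0.06 to 0.69) for N minus C (adjusted *P* = 0.410, limma). The ratio of Kcnj3 to Kcnj5, both in FPKM, was 0.805 and 0.857 under C, 0.897 and 1.16 under N, and 1.19 and 1.33 under NP.

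T-type calcium channels open near the resting potential and are found in the node and in fetal muscle. Cacna1h, the Cav3.2 pore (chr17:25374285-25436334), had a level of 1.69 and 2.67 FPKM under C, 4.86 and 4.82 under N, and 6.18 and 6.97 under NP. Its 3 groups did not overlap, with the C group lowest and the NP group highest. The N minus C difference was 0.89 (SE 0.17, 95% interval 0.46 to 1.32) in log2(FPKM + 1), the largest of all members in that comparison, with an adjusted *P* value of 0.0895 (limma). On FPKM scaled to the same total in each library, the difference was 1.02 and the adjusted *P* value 0.0399. The value for NP minus C was 1.26 (SE 0.17, 95% interval 0.84 to 1.69), with an adjusted *P* value of 0.189. For NP minus N it was 0.37 (SE 0.17, 95% interval -0.05 to 0.80), with an adjusted *P* value of 0.733. About 332 to 471 reads per library lay behind these levels. Cacna1g, the Cav3.1 pore, had a level of 2.26 and 3.43 FPKM under C, 3.47 and 2.80 under N, and 3.98 and 4.19 under NP. Its C and N groups overlapped, with a difference of 0.12 (SE 0.18, 95% interval -0.33 to 0.57). The ratio of Cacna1h to Cacna1g was 0.750 and 0.780 under C, 1.40 and 1.72 under N, and 1.55 and 1.66 under NP. The summed FPKM of both T-type pores, divided by that of the L-type pores Cacna1c, Cacna1d and Cacna1s, was 0.102 and 0.165 under C, 0.214 and 0.223 under N, and 0.212 and 0.334 under NP. Cacna1d, the Cav1.3 pore of nodal and atrial cells, had only 0.403, 0.416, 0.408, 0.728, 0.569 and 1.02 FPKM in the order of C, N and NP libraries, and its N group overlapped the C group.

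The α2δ subunits promote the transport of calcium channels to the membrane. Cacna2d2 had a level of 0.562 and 0.976 FPKM under C, 2.02 and 2.32 under N, and 2.27 and 4.44 under NP, with both C libraries lowest. Its difference was 0.85 (SE 0.27, 95% interval 0.20 to 1.51) for N minus C (adjusted *P* = 0.228, limma). For NP minus C it was 1.26 (SE 0.27, 95% interval 0.61 to 1.92) (adjusted *P* = 0.435, limma). The NP value rested on replicate 2 more than on replicate 1. Cacna2d3, a further α2δ gene, was scarcer, at 0.141 and 0.158 FPKM under C, 0.745 and 0.951 under N, and 0.761 and 1.61 under NP. This stands for about 12 and 13 reads in the C libraries and 22 to 47 in the others, through which the gene reached the limit for members. The N minus C difference was 0.68 (SE 0.22, 95% interval 0.15 to 1.22), with an adjusted *P* value of 0.232 (limma). The abundant Cacna2d1 was lowest in the N group, at 38.6 and 44.6 FPKM under C, 30.2 and 32.9 under N, and 39.4 and 42.7 under NP. The ratio of Cacna2d2 to Cacna2d1 in FPKM was 0.0146 and 0.0219 under C, 0.0670 and 0.0707 under N, and 0.0576 and 0.104 under NP.

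HCN channels carry the pacemaker current. Hcn4, the main isoform of the sinoatrial node, had a level of 1.85 and 1.85 FPKM under C, 2.96 and 2.23 under N, and 2.72 and 4.28 under NP. Both C libraries had the same level to 3 digits and lay below the other 4, and the NP group overlapped the N group. The difference was 0.33 (SE 0.20, 95% interval -0.17 to 0.83) for N minus C (adjusted *P* = 0.514, limma). For NP minus C it was 0.64 (SE 0.20, 95% interval 0.13 to 1.14) (adjusted *P* = 0.551, limma). Sinoatrial node markers (Shox2, Tbx3, Isl1, Vsnl1 and Smoc2) summed to 43.4 and 40.9 FPKM under C, 38.8 and 35.3 under N, and 42.9 and 44.1 under NP. Most of that sum was Smoc2, at 40.02 and 37.6 FPKM under C, 34.1 and 29.9 under N, and 38.2 and 38.8 under NP, which was lower in both N than in both C libraries. Shox2, a defining factor of the node, was at 0.246 and 0.269 FPKM under C, 0.712 and 1.01 under N, and 0.659 and 1.62 under NP, so both C libraries were lowest and the limit for testing was reached through the others. Tbx3 was at 3.07 and 2.99 FPKM under C and 3.53 and 4.06 under N, and its NP group overlapped both. Isl1 was at 0 in both C libraries, 0.195 and 0.0493 FPKM under N, and 0 and 0.253 under NP. Vsnl1 was at 0.0219 and 0 FPKM under C, 0.1965 and 0.3308 under N, and 0.3498 and 0.4746 under NP. Shox2, Tbx3, Isl1 and Vsnl1 were thus higher in both N than in both C libraries, an order that the sum does not show. Isl1 and Vsnl1 lay under the limit for testing. The part of node content in the Hcn4 values was not tested.

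**Figure D2:**
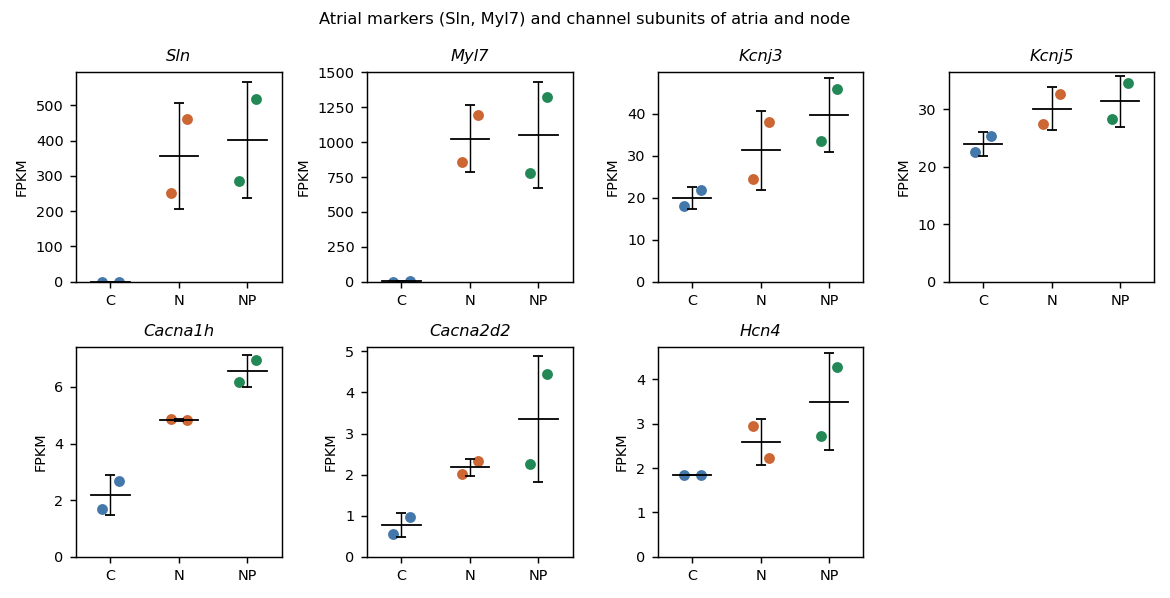
Level in FPKM of 2 atrial muscle markers (Sln and Myl7) and of 5 channel genes of atrium or node in the C, N and NP groups; points are libraries, with replicate 1 on the left, and bars are the mean and SD of 2 libraries. Sln and Myl7 are close to the axis in both C libraries, and each of the 5 channel genes has both C points below the other 4.

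The remaining genes of the atrial or nodal list did not share that order. Kcna5, the Kv1.5 pore, had levels of 16.3 and 12.8 FPKM under C, 14.4 and 14.02 under N, and 17.8 and 18.2 under NP. Kcnk3 overlapped between all groups. Kcna5 and Kcnk3 were thus well above the limit for members also in the C libraries, where the atrial markers were at their lowest. Kcnn2, a small-conductance calcium-activated channel, was at 4.98 and 4.80 FPKM under C, 3.45 and 5.47 under N, and 4.34 and 8.03 under NP. Kcne1, the accessory subunit of Kcnq1 in the slow delayed rectifier, varied from 1.28 to 3.13 FPKM, and its N libraries alone lay at 2.72 and 1.28 FPKM. Over the 11 tested genes of the 13 listed (the others lay under the level), 8 were above 0 in the N minus C difference, beside 44.8% of all genes, with a median of 0.15. For NP minus N, 11 of 11 were above 0, beside 76.9% of the members and 55.8% of all genes, with a median of 0.31. Between NP and C, 10 of 11 were above 0, beside 47.2% of all genes, with a median of 0.37. None of the 11 passed the adjusted threshold in any comparison (limma). At an unadjusted *P* value under 0.05 Cacna1h and Cacna2d2 were higher for N minus C (2 of 11, against 8.24% of all genes), none for NP minus N (against 2.21%), and Cacna1h, Cacna2d2, Hcn4 and Kcnj3 for NP minus C (4 of 11, against 3.87%). The list, like the members, was drawn up with results of these data known, and the part of atrial tissue in these values was not tested.

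The 4 ventricular channel genes, Kcnd2, Kcnip2, Kcnj2 and Kcnj12, had lower means in the N than in the C group, none past the test. Kcnd2, the Kv4.2 pore of the fast transient outward current, had a level of 9.88 and 10.1 FPKM under C, 8.33 and 8.94 under N, and 7.81 and 8.26 under NP. Both C libraries lay above the other 4, with a difference of -0.28 (SE 0.11, 95% interval -0.54 to -0.02) for NP minus C (adjusted *P* = 0.587, limma). Kcnip2 stood at 114 and 103 FPKM under C, 102 and 96.2 under N, and 111 and 83.4 under NP, a difference of -0.13 (SE 0.16, 95% interval -0.52 to 0.26) for N minus C. Kcnj2 and Kcnj12, the Kir2.1 and Kir2.2 pores that hold the resting potential, ranged from 9.82 to 21.5 FPKM and from 8.65 to 14.7 FPKM, and replicate 1 was the higher library in both N and NP. All 4 were below 0 for N minus C, where 44.8% of all genes were above 0, with a median of -0.17, while the median was -0.01 for NP minus N. The order was not particular to these genes. The 7 general cardiomyocyte markers were also below 0 for N minus C, with a median of -0.27 and a highest value of -2.1e-05. On FPKM scaled to the same total, Kcnip2 and Kcnj12 changed sign to 0.04 and 0.02 for N minus C. The ventricular marker sum, nearly all of it Myl2 and Myl3, was lower in the N and NP libraries than in both C libraries. Irx4, of the same list, was at 9.26 and 11.1 FPKM under C, 10.4 and 12.6 under N, and 8.68 and 13.2 under NP with overlapping groups, and it was the 1 of 4 ventricular markers above 0 for N minus C, at 0.16. The part of ventricular content in these values was not tested.

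**Figure D3:**
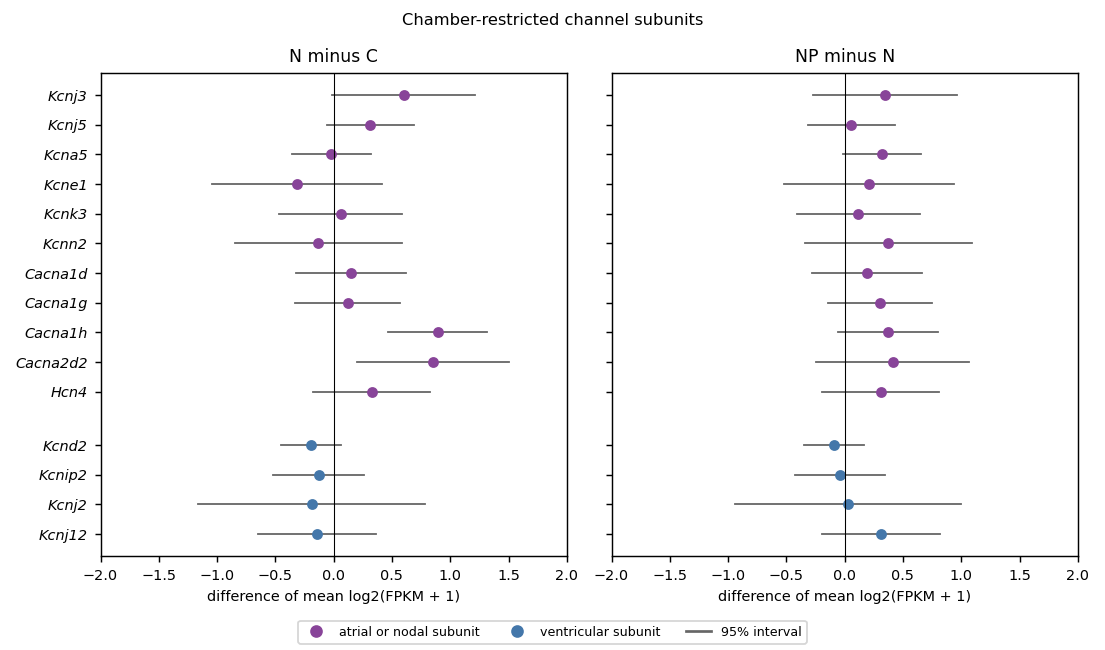
Difference of mean log2(FPKM + 1) with its 95% interval (limma) for 11 atrial or nodal and 4 ventricular channel genes, for N minus C on the left and for NP minus N on the right. Cacna1h and Cacna2d2 have intervals above 0 on the left, and on the right every one of the 15 intervals includes 0.

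Of the 7 sodium channel genes, 6 were above 0 in the N minus C difference, beside 44.8% of all genes tested, and 2 in the NP minus N difference, beside 55.8%. None of them passed the adjusted threshold. The β subunits modulate gating and adhesion. Scn4b, the β4 subunit, had a level of 18.01 and 15.2 FPKM under C, 17.04 and 17.3 under N, and 13.7 and 14.7 under NP. It was lower in both NP than in both N libraries, with a difference of -0.26 (SE 0.12, 95% interval -0.56 to 0.04) for NP minus N (adjusted *P* = 0.734, limma). Scn3b, the β3 subunit, was scarce, at 0.230 and 0.303 FPKM under C, 0.688 and 0.725 under N, and 0.704 and 0.654 under NP, and reached the limit for members through the N and NP libraries. Its C libraries were the lowest, and the N minus C difference was 0.43 (SE 0.14, 95% interval 0.09 to 0.77) (adjusted *P* = 0.234, limma). The levels stood for 22 to 26 reads in every library, with the C libraries the deeper ones. Among the pores, Scn7a, a sodium-sensing relative, was at 5.87 and 6.20 FPKM under C, 6.95 and 7.03 under N, and 7.36 and 7.70 under NP, with both C libraries lowest. Scn4a, the skeletal muscle pore, ranged from 5.85 to 7.50 FPKM. Scn10a, a pore known from sensory neurons, ranged from 0.322 to 1.27 FPKM, and its C libraries alone lay at 0.322 and 1.15 FPKM.

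The pore of the L-type calcium channel showed no separation of groups. Cacna1c had a level of 34.2 and 32.04 FPKM under C, 33.96 and 30.9 under N, and 43.5 and 28.8 under NP. Its N minus C difference was -0.03 (SE 0.20, 95% interval -0.52 to 0.46). Its β subunit Cacnb2 ranged from 14.5 to 23.5 FPKM, Cacnb1 from 2.63 to 4.07 FPKM and Cacnb3 from 1.60 to 3.10 FPKM, each with overlapping N and C groups. Cacna2d1 was the exception among the abundant subunits, since both N libraries lay below the other 4. The gene spans chr5:15934264-16374511. Its difference was -0.39 (SE 0.12, 95% interval -0.69 to -0.09) for N minus C (adjusted *P* = 0.229, limma). For NP minus N it was 0.37 (SE 0.12, 95% interval 0.07 to 0.67) (adjusted *P* = 0.446, limma). Cacna1s, the skeletal muscle pore, had levels of 2.65 to 4.55 FPKM and a difference of -0.19 for NP minus C, and the γ subunit genes Cacng6 and Cacng7 ranged from 0.597 to 1.79 FPKM and from 2.77 to 4.96 FPKM.

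Of the delayed rectifiers, Kcnh2 (the hERG pore of the rapid current) had a level of 18.5 and 20.2 FPKM under C, 22.6 and 22.03 under N, and 24.5 and 31.5 under NP. Both C libraries were lowest, with a difference of 0.50 (SE 0.14, 95% interval 0.15 to 0.86) for NP minus C (adjusted *P* = 0.520, limma). Kcnq1, the pore of the slow current, was also lowest in the C libraries, at 17.1 and 18.7 FPKM under C, 19.99 and 18.8 under N, and 22.98 and 21.2 under NP. Its antisense RNA Kcnq1ot1 was at 0.0461 to 0.430 FPKM, and whether the counting used strand is not given in the sources used here. Kcnv2, a silent modifier subunit of Kv channels, was lower in both N than in both C libraries, at 4.09 and 5.23 FPKM under C, 3.15 and 2.91 under N, and 4.21 and 2.48 under NP. Its N minus C difference was -0.48 (SE 0.22, 95% interval -1.02 to 0.06), with an adjusted *P* value of 0.381 (limma). Kcng2 was at 36.7 and 44.7 FPKM under C, 36.8 and 35.7 under N, and 45.02 and 46.96 under NP. Its difference was 0.34 (SE 0.13, 95% interval 0.03 to 0.65) for NP minus N (adjusted *P* = 0.556, limma). Kcnd3, the Kv4.3 pore, ranged from 3.50 to 5.22 FPKM without a separation of groups. Kcna7 was at 3.82 to 5.38 FPKM and lowest in both N libraries. Other Kv genes had low levels: the means of Kcna1, Kcna2, Kcna6, Kcne4, Kcnab1, Kcnab2 and Kcnip3 were all under 2 FPKM.

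Kcnab2, a cytosolic β subunit that is also found in immune cells, had the most negative difference of the members for NP minus N. Its level was 0.826 and 0.588 FPKM under C, 1.57 and 1.001 under N, and 0.720 and 0.454 under NP, so both N libraries lay above the other 4. The NP minus N difference was -0.52 (SE 0.19, 95% interval -0.99 to -0.05), with an adjusted *P* value of 0.541 (limma). Kcnk6, a TWIK-like background channel, had the same order, with 1.83 and 2.15 FPKM under C, 2.33 and 2.48 under N, and 1.99 and 1.42 under NP. It had a difference of -0.34 (SE 0.15, 95% interval -0.72 to 0.04) between NP and N (adjusted *P* = 0.725, limma). These were the only 2 members with both N libraries above the other 4, against 10.3% of all genes. The macrophage markers Cd68, Adgre1, Csf1r, C1qa and Cd163 summed to 109 and 93.9 FPKM under C, 221 and 143 under N, and 89.2 and 71.3 under NP. All 5 had a lower mean in the NP than in the N group. Among the genes under the level for members, the lymphocyte channel Kcna3 (Kv1.3) had 0.129 and 0.104 FPKM under C, 0.386 and 0.260 under N, and 0.0687 and 0 under NP, about 6 reads or fewer per library. The immune cell channel Kcnn4 (KCa3.1) had 0.130 and 0.201 FPKM under C, 0.649 and 0.721 under N, and 0.416 and 0.134 under NP, about 2 to 11 reads. The 4 T cell markers found (Cd3e, Cd3d, Cd3g and Cd8a) summed to 0.236 and 0.233 FPKM under C, 2.12 and 1.90 under N, and 0.264 and 0.144 under NP. The part of immune cells in these values was not tested.

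Kcnj11 and Kcnj8 encode pores of the ATP-sensitive channel, which couples the membrane to metabolism. The level of Kcnj11 was 69.8 and 64.02 FPKM under C, 79.4 and 63.8 under N, and 85.3 and 74.4 under NP. Its difference was 0.09 (SE 0.15, 95% interval -0.27 to 0.45) for N minus C. Kcnj8, the Kir6.1 pore best known from vascular smooth muscle and pericytes, had 25.5 and 22.1 FPKM under C, 19.8 and 17.4 under N, and 20.9 and 21.7 under NP. Both C libraries were highest and both N libraries lowest. Its difference was -0.34 (SE 0.13, 95% interval -0.65 to -0.03) for N minus C (adjusted *P* = 0.292, limma) and 0.19 (SE 0.13, 95% interval -0.12 to 0.49) for NP minus N. The ratio of Kcnj11 to Kcnj8 in FPKM was 2.73 and 2.90 under C, 4.01 and 3.67 under N, and 4.08 and 3.44 under NP. The sulfonylurea receptors that complete the channel were Abcc9 (SUR2) and Abcc8 (SUR1). Abcc9 was at 85.5 and 92.4 FPKM under C, 79.4 and 74.2 under N, and 92.8 and 72.2 under NP. Abcc8 was at 11.3 and 9.68 FPKM under C, 13.3 and 11.7 under N, and 14.01 and 12.9 under NP. Their N minus C differences were -0.21 (SE 0.15, 95% interval -0.57 to 0.15) and 0.23 (SE 0.13, 95% interval -0.08 to 0.55), with adjusted *P* values of 0.572 and 0.461 (limma). Markers of smooth muscle and pericytes (Myh11, Acta2, Tagln, Pdgfrb and Rgs5) summed to 260.1 and 229.6 FPKM under C, 269 and 278 under N, and 298 and 296 under NP. The scarce Kcnj15 was lowest in both C libraries and Kcnj14 highest there, at 0.345 to 0.969 FPKM and 0.186 to 0.778 FPKM over the 6 libraries. Kcnj15 reached the limit for members through the N and NP groups, and Kcnj14 through the C group.

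Among the other potassium channel genes, Kcnk2, the stretch-activated TREK-1, had the most positive NP minus N difference. Its level was 0.775 and 0.702 FPKM under C, 0.463 and 0.777 under N, and 0.974 and 1.73 under NP, a difference of 0.53 (SE 0.21, 95% interval 0.02 to 1.03) (adjusted *P* = 0.586, limma). Both NP libraries lay above both N libraries, and the gap between replicates within NP was larger than that between the lower NP and the higher N library. Kcnn2 differed by 0.37 (SE 0.29, 95% interval -0.34 to 1.09) between the overlapping NP and N groups. Kcnn1, of the same family, Kcnt2, a sodium-activated channel, and Kcnmb1, the β1 subunit of the large-conductance channel of smooth muscle, ranged from 3.43 to 5.74 FPKM, 0.874 to 1.66 FPKM and 0.488 to 1.18 FPKM.

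Hcn2 (chr10:79716634-79736108), a pacemaker isoform also of ventricular muscle, had the smallest *P* values of the members lowest in the N group. Its level was 11.7 and 10.9 FPKM under C, 8.29 and 7.81 under N, and 10.95 and 10.8 under NP. Both N libraries lay below the other 4, and the C and NP groups overlapped. The difference was -0.45 (SE 0.10, 95% interval -0.70 to -0.19) for N minus C (adjusted *P* = 0.133, limma). For NP minus N it was 0.39 (SE 0.10, 95% interval 0.14 to 0.65) (adjusted *P* = 0.273, limma). Hcn4 did not share this order, and the ratio of Hcn4 to Hcn2 in FPKM was 0.158 and 0.169 under C, 0.357 and 0.286 under N, and 0.249 and 0.395 under NP.

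CLC genes encode chloride channels of the surface and exchangers of endosomes and lysosomes. Clcn2, the inwardly rectifying chloride channel of the surface, had a level of 1.31 and 1.25 FPKM under C, 0.690 and 0.632 under N, and 0.983 and 1.16 under NP. This stands for 79 and 100 reads in the C libraries and 16 to 29 in the others. Its 3 groups did not overlap, with the N group lowest. The difference was -0.46 (SE 0.13, 95% interval -0.79 to -0.13) for N minus C (adjusted *P* = 0.204, limma). For NP minus N it was 0.32 (SE 0.13, 95% interval -0.01 to 0.64) (adjusted *P* = 0.654, limma). The endosomal Clcn3 was at 13.5 and 16.3 FPKM under C, 11.2 and 12.7 under N, and 13.6 and 14.4 under NP. Its relative Clcn4-2 was at 30.5 and 30.3 FPKM under C, 27.2 and 28.3 under N, and 30.4 and 30.02 under NP. Both were lowest in the N libraries by small steps. The lysosomal Clcn7 and Clcn6 ranged from 10.02 to 16.1 FPKM and 2.78 to 6.52 FPKM, with replicate 1 the higher library in both N and NP. Clcn1, the skeletal muscle channel, ranged from 1.42 to 2.63 FPKM. Clcn5 ranged from 0.183 to 0.916 FPKM, and both ends of that range were NP libraries.

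Together, 10 of 65 members had both N libraries below the other 4, against 8.71% of all genes tested. Among these were Cacna2d1, Clcn2, Clcn3, Clcn4-2, Hcn2, Kcna7, Kcnip3 and Kcnj8. Both C libraries were below the other 4 in 11 of 65 members, against 10.3% of all genes: Cacna1h, Cacna2d2, Cacna2d3, Hcn4, Kcnh2, Kcnj15, Kcnj3, Kcnj5, Kcnq1, Scn3b and Scn7a. Among the 11, Cacna2d3, Kcnj15 and Scn3b reached the limit for members only through the N and NP groups, so this order was part of their choice. Both C libraries were above the other 4 in 5 of 65, among them Clcn2, Kcnd2, Kcnj14 and Kcnj8, against 14.3%. Of these, Kcnj14 reached the limit for members only through the C group. These orders carry no test of their own. The median SD between replicates of a member was 0.193 in log2(FPKM + 1).

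**Figure D4:**
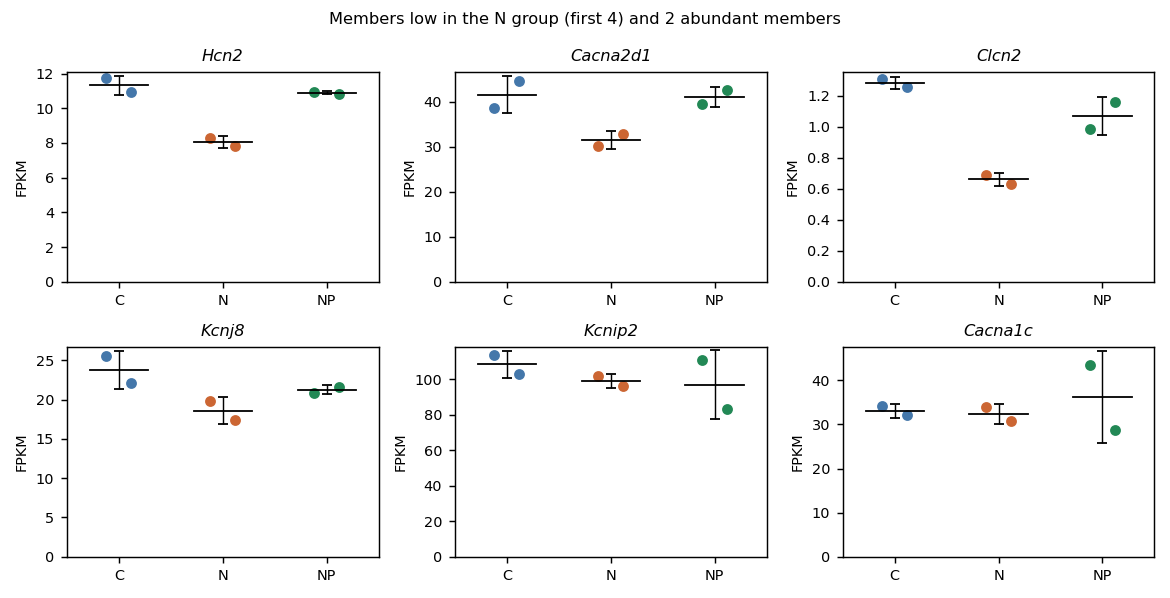
Level in FPKM of 4 members that were lowest in both N libraries and of 2 abundant members (Kcnip2 and Cacna1c); points are libraries, with replicate 1 on the left, and bars are the mean and SD of 2 libraries. In the first 4 plots both N points lie below all others, while in the last 2 plots the N points overlap those of another group.

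The comparison of the NP with the N group addresses pemafibrate at similar depth and with atrial markers in all 4 libraries. Tissue content was not equal in them. The atrial markers summed to 3710 and 5229 FPKM under N and 3795 and 6248 under NP, with 6 of 7 above 0 for NP minus N. Adipocyte markers summed to 169 and 88.03 FPKM under N and 13.6 and 74.2 under NP. The part of tissue content in this comparison was not tested. Of 65 members, 50 or 76.9% were above 0 in the NP minus N difference, beside 55.8% of all genes tested, and none passed the adjusted threshold, as given above. The files of the N and NP groups are named in 2 ways that follow the replicate numbers, so the difference was also taken within replicate 1 and within replicate 2. The median of the members was 0.12 in replicate 1, with 44 of 65 above 0, and 0.22 in replicate 2, with 50 of 65 above 0, beside a median of 0.02 over all genes in either. In both replicates 38 of 65 members were higher in the NP library, against 33.6% of all genes, and 9 of 65 were lower, against 26.1%. The lower ones included Cacnb1, Kcnab1, Kcnab2, Kcnd2, Kcnk6, Scn10a, Scn4a and Scn4b. All 7 cardiomyocyte markers were also above 0 in the NP and N difference, with a median of 0.16. Hcn2 differed by 0.36 in replicate 1 and 0.42 in replicate 2, Cacna2d1 by 0.38 and 0.37, and Cacna1h by 0.29 and 0.45. Kcne1 had opposite signs, with -0.39 and 0.80, and so did Hcn4, with -0.09 and 0.71.

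**Figure D5:**
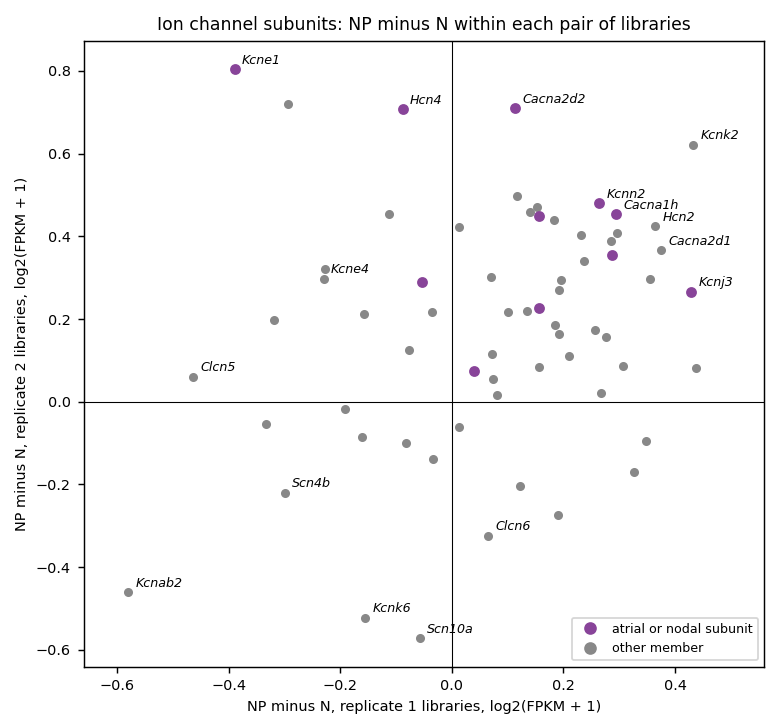
Difference in log2(FPKM + 1) between the NP and N library of replicate 1 (horizontal) and of replicate 2 (vertical) for the 65 members, with the 11 atrial or nodal genes in purple. There are 38 points to the upper right of 0 and 9 to the lower left, where Kcnab2 lies farthest out.

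Replicates themselves differed in a shared way for part of the members. Replicate 2 was above replicate 1 in both N and NP for 24 of 65 members, against 33.6% of all genes, and below it in both for 22 of 65, against 36.3%. The first set included Kcnj3, Kcnj5, Cacna2d2, Cacna2d3, Cacna1d and Kcnn2, and also Kcnd2 of the ventricular list. Kcnip2, Kcnj2, Kcnj12 and Kcnk3 were in the second set. The summed atrial markers were higher in replicate 2 in both groups, and so were the summed ventricular markers. The split thus did not follow the atrial and ventricular lists throughout. The part of chamber content in this split was not tested.

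Of 36 listed partners of channels and genes of conduction, 32 were tested. In the N group 2 of them were higher than in the C group at an adjusted *P* value under 0.05 (limma), and none was lower, against 1.55% of all genes called in either direction. Fgf12, an intracellular modulator of sodium channels, had a level of 0.0145 and 0.134 FPKM under C, 2.54 and 4.23 under N, and 2.51 and 4.84 under NP. About 1 and 11 reads lay behind its C levels, and the gene reached the limit for testing only through the N and NP groups, so that a higher level there was part of what brought it into the test. Its N minus C difference was 2.004 (SE 0.30, 95% interval 1.27 to 2.74), with an adjusted *P* value of 0.0405. Gja5, the connexin 40 of atrium and conduction system and also 1 of the 7 atrial markers, had 2.66 and 3.16 FPKM under C, 6.58 and 7.96 under N, and 6.21 and 7.87 under NP. Its N minus C difference was 1.08 (SE 0.16, 95% interval 0.68 to 1.48), with an adjusted *P* value of 0.0409. Gja1, the connexin 43 of working muscle, had 120.2 and 134 FPKM under C, 127 and 185 under N, and 144 and 201 under NP. Its N and C groups overlapped, with a difference of 0.27 (SE 0.23, 95% interval -0.30 to 0.85). None of the 32 passed the adjusted threshold between the NP and N or the NP and C groups (limma). Unadjusted *P* values under 0.05 (limma) were found there for Lrrc10 on the higher side for NP minus N, against 2.21% of all genes. For NP minus C they were found for Abcc8, Ano1, Fgf12, Gja5, Shox2 and Tbx5 on the higher side, against 3.87%. Shox2, like Fgf12, reached the limit for testing only through the N and NP groups. For N minus C they marked Fgf12, Gja5 and Tbx5 as higher, against 8.24%, and Lrrc10 and Casq2 as lower, against 6.76%. The median difference of the 32 was -0.02 for N minus C and 0.10 for NP minus N.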

How the data were processed

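RNA of mouse hearts was sequenced in 75-base single-end mode from stranded mRNA libraries, 2 for each of the C, N and NP groups, which were taken from the sample labels. The authors mapped the reads to mm10 with TopHat2 2.0.13, Bowtie2 2.2.3 and SAMtools 0.1.19 and computed the deposited FPKM with Cufflinks 2.2.1. Whether strand was used in counting is not given in the sources used here. FPKM normalizes for transcript length and for mapped fragments, so a few very abundant transcripts can shift all other values of a library.

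From the FPKM, log2(FPKM + 1) was computed for the 12923 genes with a mean of at least 0.5, out of 24346. The 3 groups were fitted in one model with limma 3.58.1 in R 4.3.3, with empirical Bayes moderation and a mean-variance trend. Benjamini-Hochberg adjustment ran over all genes tested. An exact permutation of 2 against 2 libraries cannot give a *P* value below 0.333 and was not used. Tables and plots were made with Python 3.11.15, numpy 2.4.6, pandas 2.3.3 and matplotlib 3.10.9. Reads per library and per gene are estimates from steps in the low FPKM of genes for which GENCODE M21 lists 1 transcript, with 200 bases taken off the length; 72.0% to 76.3% of values of up to 5 reads came within 0.1 of a whole number. On 3 simulated libraries the largest error of this estimate was 1.96%. Because of this share, no count test was run. Tested on simulated data for the N and C comparison of 12923 genes, 200 of them changed, the model found 87% of genes changed by 2 and 52% of those changed by 1 on the log2 scale, with 4 false calls, and 0 calls when no gene was changed.

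All 65 members entered the fits and counts, and the values of some genes are not reported here. Genes given with their values were, by rule, lists of core, atrial or nodal and ventricular channel genes and the 5 most positive and 5 most negative differences in each comparison, and the partner genes that passed the test with Gja1, Gja5, Abcc8 and Abcc9. The members and lists were chosen with earlier results of these data known, and Kcna3, Kcnn4 and the other genes under the level or outside the rule were chosen after their values were seen. Positions and promoter windows are those of RefSeq for GRCm38.p6, where 45 of 65 members had a window, and Cacna1h was not among them. Alternatives were another pseudocount, filters, scalings, moderation, 2-group models, blocks for the replicate number, and leaving out each library.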

Additional observations from a re-analysis of the deposited data

How the results depend on the processing

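The count of members past an adjusted *P* value of 0.05 (limma) stayed at 0 in the comparisons of NP with N and of NP with C under all 16 alternatives tried. Between N and C it was 1 on FPKM scaled to the same total and 1 with a replicate block, in both cases Cacna1h, with a difference of 1.02 and an adjusted *P* value of 0.0399 in the first and 0.0499 in the second. It was 3 with a block for the replicate number in the N and NP libraries only, namely Cacna1h (adjusted *P* = 0.0412), Kcnj3 (0.0383) and Hcn2 (0.0403), and 0 whenever a library was left out. The labels' replicate numbers do not show a pairing by themselves: deviations of replicate 2 from replicate 1 correlated across 12923 genes with Pearson's r of 0.458 between N and NP, 0.0471 between C and N and 0.124 between C and NP, so the block results stand here only. Genes are not independent replicates.

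All genes called between N and C were 200, and were 309 on scaled FPKM, 328 with the replicate block, 1100 with the block in the N and NP libraries only, and 49 to 183 without 1 library, lowest without C replicate 2. Between NP and N they were 179, and were 78 with only the 2 groups in the model, 301 with the block in the N and NP libraries only, and 67 to 108 without 1 library, lowest without NP replicate 2. Between NP and C they were 5, and were 12 with a pseudocount of 0.1, 0 without a filter, 10 on scaled FPKM, 20 with the replicate block, 55 with the block in the N and NP libraries only, and 5 to 101 without 1 library, highest without C replicate 1.

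Members past 1.5-fold without overlap became 12, 7 and 12 in the 3 comparisons (N and C, NP and N, NP and C) with a pseudocount of 0.1, and ranged without 1 library from 4 to 6, from 0 to 5 (highest without NP replicate 1) and from 4 to 9 (highest without NP replicate 1). The median difference of the members between N and C was 0.118 on scaled FPKM, where the median of all genes moved to 0.116 as well, and ranged from -0.0652 to 0.0485 without 1 library. Between NP and N it ranged from 0.11 to 0.17 without 1 library. Between NP and C it was 0.15 with a pseudocount of 0.1 and 0.20 on scaled FPKM, where the median of all genes was 0.12, and ranged from 0.12 to 0.14 without 1 library.

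A change of sign was found between N and C on scaled FPKM for Kcna5 (0.144), Kcnn2 (0.00883), Kcnip2 (0.0440) and Kcnj12 (0.0198). Without 1 library, 8 differences between N and C spanned 0: Kcna5 from -0.184 to 0.144, Cacna1g from -0.102 to 0.34, Kcnj2 from -0.716 to 0.339, Kcnk3 from -0.241 to 0.360, Kcnn2 from -0.405 to 0.137, Kcne1 from -0.668 to 0.0389, Cacna1d from -0.00166 to 0.294 and Kcnj12 from -0.419 to 0.134. Between NP and N, Clcn5 ranged from -0.549 to 0.147 and Kcnn2 from -0.00699 to 0.751. None of these passed the test, and the cause was not tested. The N and NP libraries, with a depth of 8.14 to 8.66 in units of 1e+06 reads, limit the scarce members most, as for Clcn2 with 16 to 29 reads there.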
